A study of Mus musculus with 6 samples.

Results

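The natriuretic peptide system of the heart was followed through 6 genes, Nppa, Nppb, Npr1, Npr2, Npr3 and Corin, which were taken by gene symbol from a table of 54352 genes. All 6 were found, and all 6 were among the 13094 genes expressed highly enough to be tested (mean rlog of at least 5). RNA from mouse heart tissue had been sequenced in 6 libraries, in 3 groups of 2. The controls were kept on ordinary lab chow and, per the labels, had no transgene. Type 2 diabetes (T2D) was induced in the other mice, of the C57BL/6 strain and 12 weeks old at the start, with high-fat food (60% of its calories as fat) plus 75 mg/kg of streptozotocin (STZ), a beta cell toxin, given once. These mice then received an adeno-associated virus (AAV) through the jugular vein, 16 to 18 weeks after STZ. In the AAV empty vector group (T2D empty vector in the plots) the virus held no transgene. In the AAV dnMCUb group (T2D dnMCUb in the plots) it encoded murine MCUb, which is part of the calcium uniporter of mitochondria, with a FLAG tag and the substitutions W246R and V251E, described as dominant negative. Hearts were examined 4 weeks after the virus, 5 to 6 months after the start of STZ and fat feeding. Diet, STZ and virus all separate the controls from both diabetic groups, so their parts cannot be told apart. Neither the promoter of the vector nor the chambers sampled are named in the labels. Nor do these say that a pair of libraries means a pair of mice, so the p-values reflect only how far these libraries spread.

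Cardiac myocytes store and release 2 natriuretic peptides, which lower blood volume and pressure. Nppa encodes the precursor of atrial natriuretic peptide (ANP), made mostly in the atria, and Nppb that of B-type natriuretic peptide (BNP), which ventricles also make when their wall is stretched. Corin is a membrane protease of cardiac myocytes that cuts the ANP precursor. Npr1 encodes guanylyl cyclase A, the receptor through which ANP and BNP raise cyclic GMP (cGMP). Npr2 encodes guanylyl cyclase B, the receptor of C-type natriuretic peptide. Npr3 encodes the clearance receptor, which has no cyclase domain and removes the peptides from the circulation.

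Nppa and Nppb lie in tandem on the plus strand of chromosome 4, and the 250 bases before the RefSeq start of each are shown because these neighbouring ligand genes were both lower in the AAV empty vector libraries. The sequences are from RefSeq (GRCm38.p6, plus strand), which gave a window for all 6 genes. Capitals mark matches on either strand to 4 motifs of cardiac transcription factors. The motif of GATA factors was searched as AGATAA and as TGATAA. That of NK2 homeobox factors was searched as AAGTG, that of T-box factors as GGTGTGA, and the M-CAT element of TEAD factors as CATTCC.
Nppa, chr4:148000472-148000721: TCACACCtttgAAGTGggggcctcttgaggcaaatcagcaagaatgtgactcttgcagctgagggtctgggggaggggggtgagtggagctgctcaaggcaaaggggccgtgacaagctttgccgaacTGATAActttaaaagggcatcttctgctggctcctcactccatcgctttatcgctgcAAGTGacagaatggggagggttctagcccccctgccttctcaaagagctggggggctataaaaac
Nppb, chr4:147985650-147985899: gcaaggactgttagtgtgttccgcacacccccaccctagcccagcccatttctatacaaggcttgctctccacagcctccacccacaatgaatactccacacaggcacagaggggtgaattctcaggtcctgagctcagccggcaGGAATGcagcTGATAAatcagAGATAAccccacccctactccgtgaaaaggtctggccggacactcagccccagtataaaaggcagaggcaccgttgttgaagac
The Nppa window holds a T-box match on the minus strand at -250 to -244, NK2 matches at -239 to -235 and -65 to -61, and a GATA match at -122 to -117, counted from the RefSeq start. The Nppb window holds GATA matches at -95 to -90 and -84 to -79 and an M-CAT match on the minus strand at -105 to -100. The start of Nppb in GENCODE M21 lies 112 bases before the RefSeq start, so these Nppb matches are inside the GENCODE transcript. Of 32851 RefSeq promoter windows of this length, 16.6% hold the GATA letters, 40.71% the NK2, 3.33% the T-box and 12.64% the M-CAT letters. E-boxes (CANNTG; 66.22% of windows), left in lower case, number 2 in Nppa, of which 1 overlaps the NK2 match at -65, and 1 in Nppb, which overlaps the GATA match at -95. CArG box (1.47% of windows) and AP1 (TGANTCA; 6.75%) letters are in neither window. Windows of the other 4 genes hold none of these letters apart from 1 E-box each in Npr2, Npr3 and Corin. The RefSeq starts of Npr3 and Corin lie at -1732 and -332 from their GENCODE M21 starts, so those windows do not adjoin the GENCODE starts. A match describes the sequence and does not show that a factor binds there.

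Values are regularized log (rlog) values on the log2 scale, in which each value is drawn towards its gene's mean. They therefore understate folds: for genes called in the authors' deposited table, dividing the rlog difference by the deposited log2 fold gave medians of 0.577, 0.509 and 0.463 for AAV empty vector against control, AAV dnMCUb against control, and AAV dnMCUb against AAV empty vector. Library depth is unknown, as the values are not counts. The AAV dnMCUb libraries differed most from each other: over genes, library 1 minus library 2 had an SD of 0.0758 among controls, 0.0829 for AAV empty vector and 0.1351 for AAV dnMCUb. Mcub, whose mutated form the vector carries, was at 5.42 and 5.47 in control, 5.48 and 5.46 in AAV empty vector, and 5.62 and 5.47 in AAV dnMCUb. The difference of 0.08 (SE 0.05) between the diabetic groups did not pass (limma, adjusted p = 0.888). Directions that involve the dnMCUb libraries therefore rest on their label. All 9 ventricular myocyte markers were expressed, with a mean rlog between 12.94 and 13.18 in the 6 libraries. Atrial myocyte markers other than Nppa had a mean of 8.01 and 7.56 in control, 7.58 and 7.74 in AAV empty vector, and 8.24 and 7.62 in AAV dnMCUb (16 of 19 tested). In bulk tissue, fewer cells of a type and less RNA per cell cannot be told apart.

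Per transcript length, the 6 genes formed a high and a low set. As rlog minus log2 of the transcript length in kb, over all 6 libraries, the level was 11.28 ± 0.35 for Nppb, 10.57 ± 0.54 for Nppa, 10.13 ± 0.15 for Corin, 7.69 ± 0.05 for Npr2, 7.25 ± 0.10 for Npr3 and 6.93 ± 0.09 for Npr1 (SD, n = 6 libraries of 3 groups). The ligands and their protease thus stood above the 3 receptors in level in these hearts. Nppa and Corin lay closer together than the spread of Nppa, and their order changed between groups: Nppa was at 10.98 ± 0.35 and Corin at 10.06 ± 0.14 in control, but 10.04 ± 0.27 and 10.14 ± 0.03 in AAV empty vector (SD, n = 2). Every other pair of neighbours in that order differed by more than the SD of either gene.

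**Figure D1:**
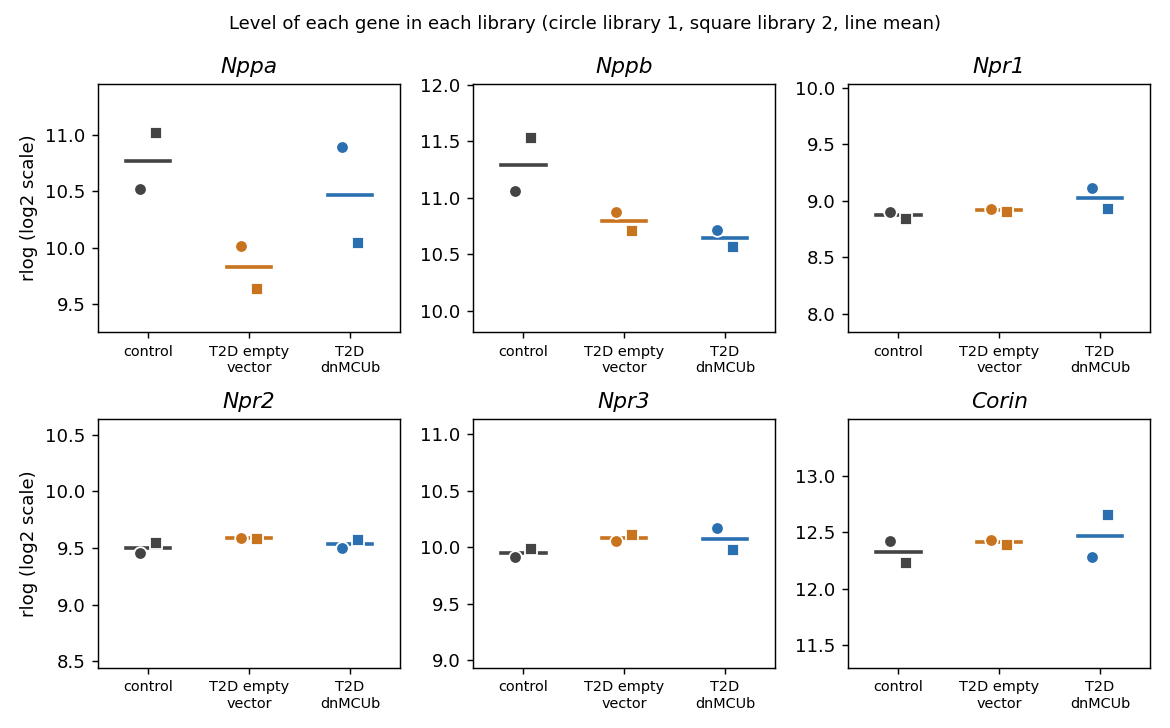
Level of each of the 6 genes in each library, as rlog on the log2 scale, with all panels spanning the same range. Circles are library 1, squares library 2 and lines the mean of a group; Nppa and Nppb vary most, and both AAV empty vector libraries lie below both control libraries for these ligand genes.

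Nppa was the gene with the lowest difference of all 13094 between AAV empty vector and control hearts, and ranked 179th by limma p. Nppa (ENSMUSG00000041616.9; plus strand of chromosome 4 from 148000722 to 148002079, GRCm38; 3 exons, 152 codons) was at an rlog of 10.52 and 11.01 in control, 10.01 and 9.63 in AAV empty vector, and 10.89 and 10.04 in AAV dnMCUb. Both AAV empty vector libraries were below every other library, and the AAV dnMCUb libraries were split, with library 1 between the control libraries and library 2 beside AAV empty vector library 1. The group levels were 10.76 ± 0.35, 9.82 ± 0.27 and 10.46 ± 0.60 (SD, n = 2). Nppa was lower in AAV empty vector than in control by a difference of -0.94 (SE 0.27), 0.522 times the control level on the rlog scale. It did not pass over all genes tested (limma, adjusted p = 0.706). That SE pools the spread of all 3 groups. With only the 2 groups compared in the fit, the SE was 0.16 (limma, adjusted p = 0.0842). The difference was -0.69 without control library 2 and -1.19 without control library 1. Without AAV empty vector library 1 it was -1.13, and without library 2 of that group -0.75. The authors' deposited table gives a log2 fold of -1.57 with an adjusted p of 0.212.

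Between the diabetic groups Nppa ran the other way. It was higher in AAV dnMCUb than in AAV empty vector by 0.64 (SE 0.27), the 11th highest difference of 13094. It ranked 735th by limma p and did not pass (limma, adjusted p = 0.869). This difference rested on library 1 labelled dnMCUb: without it the difference was 0.21 (SE 0.19), and with library 2 left out instead it was 1.06 (SE 0.19, limma adjusted p = 0.0897). Against control, AAV dnMCUb was at -0.30 (SE 0.27, limma adjusted p = 0.678), and the sign turned to 0.12 without library 2 labelled dnMCUb, while without library 1 the value was -0.73. Without control library 2 it was -0.05 and without control library 1 it was -0.55. In the authors' deposited table the log2 folds of Nppa were 1.19 (adjusted p = 1.0) against AAV empty vector and -0.38 (adjusted p = 1.0) against control. The 3 comparisons share libraries, so their values are not separate observations.

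Nppa also varied within groups more than most genes. Its within-group SD was 0.4305, where the median over all genes tested was 0.0425, and 99.8% of genes had a smaller one. The within-group SD was 0.2101 for Nppb, 0.1733 for Corin, 0.0894 for Npr3, 0.0826 for Npr1 and 0.0448 for Npr2, so of the 6 genes Npr2 alone was close to the median.

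Atrial markers other than Nppa were compared with it library by library. Of the 16 tested, 3 were higher and 13 lower in AAV empty vector than in control (median -0.07), and 14 were higher and 2 lower in AAV dnMCUb than in AAV empty vector (median 0.13), mostly in the direction of Nppa. At an unadjusted p under 0.05, limma had 0 in the former comparison and 2, both higher, in the latter, and 0 in either at an adjusted p under 0.05. The unadjusted share over all genes tested was 6.13% and 5.64%. In AAV dnMCUb against control, where Nppa was lower (-0.30), 13 of the markers were higher and 3 lower (median 0.10). Myl7, the atrial myosin light chain gene, was at 9.45 and 7.32 in control, 7.46 and 7.94 in AAV empty vector, and 10.22 and 7.40 in AAV dnMCUb. Its highest level and the second highest level of Nppa were in the same library, library 1 labelled dnMCUb, whereas the highest Nppa level was in control library 2, where Myl7 was lowest. In the 3 libraries with Myl7 between 7.32 and 7.46, Nppa was at 11.01 in control library 2, 10.01 in AAV empty vector library 1 and 10.04 in library 2 labelled dnMCUb. Myl4, the other atrial light chain gene, gave 9.47 and 7.53, 7.65 and 8.15, and 10.30 and 7.56 in the same order, and Sln, the atrial calcium pump inhibitor sarcolipin, 6.98 and 6.07, 6.12 and 6.22, and 7.55 and 6.11. The summed level of the 16 tested markers ran from 12.72 to 13.08 on the log2 scale in control, 12.75 to 12.85 in AAV empty vector and 12.81 to 13.30 in AAV dnMCUb. Bmp10 and Hamp, also on this list, were below the minimum for testing, at 2.43 to 2.49 and 1.53 to 1.57. With the mean of the tested atrial markers as a covariate, the Nppa difference was -0.89 (SE 0.25) for AAV empty vector against control. Between the diabetic groups it was 0.53 (SE 0.27), and neither passed (limma, adjusted p = 0.421 and 0.999). The part of atrial cells in these Nppa differences was not tested.

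Red cell markers, chiefly globin genes, also ran in the direction of Nppa in AAV empty vector against control and between the diabetic groups. Their mean rlog was 8.99 and 8.30 in control, 8.26 and 8.29 in AAV empty vector, and 8.83 and 9.25 in AAV dnMCUb. All 6 tested were lower in AAV empty vector than in control (median -0.38) and higher in AAV dnMCUb than in AAV empty vector (median 0.83), the latter all at an unadjusted p under 0.05 with limma and 0 at an adjusted one. All 6 were higher in AAV dnMCUb than in control as well (median 0.43), where Nppa was lower (-0.30). By library they differed from Nppa: control library 2, with the highest Nppa, was as low in red cell markers as AAV empty vector. All 10 macrophage markers were higher in AAV dnMCUb than in AAV empty vector too (median 0.15), with 4 at an unadjusted p under 0.05 and 0 at an adjusted one. Of all genes tested, 5.64% were at an unadjusted p under 0.05 between the diabetic groups. Against control, 8 macrophage markers were higher and 2 lower in AAV empty vector (median 0.04), with 0 at an unadjusted p under 0.05. All 10 were higher in AAV dnMCUb (median 0.19), with 6 at an unadjusted p under 0.05 and 0 at an adjusted one. The unadjusted share over all genes tested was 6.13% and 11.4%. Nppa was lower in both of those comparisons. The part of blood and macrophages in the Nppa difference was not tested.

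**Figure D2:**
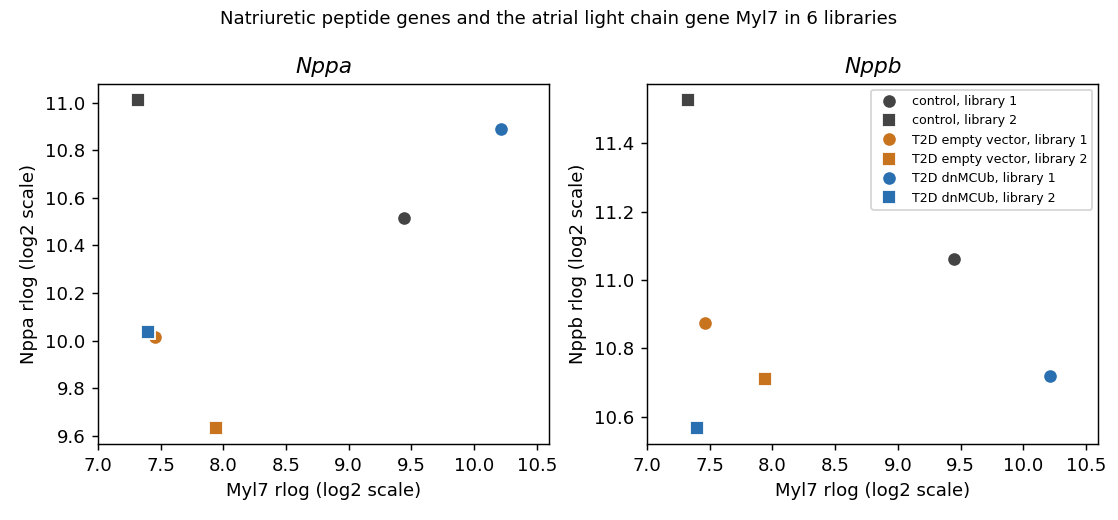
Nppa (left) and Nppb (right) rlog against Myl7 rlog, both on the log2 scale, with 1 point per library; circles are library 1 and squares library 2. Control library 2 has the lowest Myl7 (7.32) and the highest Nppa (11.01), and library 1 labelled dnMCUb has the highest Myl7 (10.22).

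Nppb was lower in both diabetic groups than in control. Nppb (ENSMUSG00000029019.8; plus strand of chromosome 4 from 147985788 to 147987205, GRCm38; 3 exons, 121 codons) was at 11.06 and 11.53 in control, 10.87 and 10.71 in AAV empty vector, and 10.72 and 10.57 in AAV dnMCUb. All 4 diabetic libraries lay below both control libraries, and the diabetic groups overlapped narrowly. Of all genes tested, 22.5% were lower without overlap in AAV empty vector than in control, and 22.7% in AAV dnMCUb. The share lower in all 4 diabetic libraries was not counted. The group levels were 11.29 ± 0.33, 10.79 ± 0.12 and 10.64 ± 0.11 (SD, n = 2). The difference from control was -0.50 (SE 0.14) in AAV empty vector, the 10th lowest of 13094, and -0.65 (SE 0.14) in AAV dnMCUb, the 3rd lowest. By limma p they ranked 137th and 146th. Neither passed over all genes tested (limma, adjusted p = 0.684 and 0.162). Between the diabetic groups the difference was -0.15 (SE 0.14, limma adjusted p = 0.919), with a 95% interval from -0.47 to 0.17. That value was -0.07 without AAV empty vector library 1 or AAV dnMCUb library 2, -0.23 without AAV empty vector library 2, -0.22 without AAV dnMCUb library 1 and -0.09 with the atrial covariate. Ventricular myocyte markers ran in the same direction as Nppb against control: of 9, 0 were higher and 9 lower in AAV empty vector (median -0.15), and 2 were higher and 7 lower in AAV dnMCUb (median -0.18). Of these, 1 and 2 were lower at an unadjusted p under 0.05 with limma and 0 passed. Over all genes tested, 2.87% and 5.54% were lower at that unadjusted p. The part of ventricular myocytes in the Nppb difference was not tested.

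In the authors' deposited table Nppb was called lower in AAV dnMCUb than in control, with a log2 fold of -1.04 and an adjusted p of 4.73e-05. It was the only one of the 6 genes with an adjusted p under 0.05 in that table in any of the 3 comparisons, where the share of all genes called was 0.357% for AAV dnMCUb against control, 0.255% for AAV empty vector against control and 0.0311% between the diabetic groups. For AAV empty vector against control the authors' deposited table gives a log2 fold of -0.79 (adjusted p = 0.945). The size in the limma fits depended on which control library was kept. Without control library 2 the difference of AAV dnMCUb from control was -0.42 and that of AAV empty vector -0.27, and without control library 1 they were -0.88 and -0.73.

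Within a library, the ligand genes were a similar distance apart in both controls and at another distance in 3 of the 4 diabetic libraries. Nppa minus Nppb in rlog was -0.55 and -0.52 in control, -0.86 and -1.08 in AAV empty vector, and 0.17 and -0.53 in AAV dnMCUb. Library 2 labelled dnMCUb had the distance of the control libraries with both genes lower, and library 1 was the only library with Nppa above Nppb.

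The low levels in AAV empty vector were seen at these neighbouring genes and not around them. Nppb ends 13516 bases before Nppa starts. Of the other genes that lie within 250 kb on either side, 14 were tested, and their differences ran from -0.14 to 0.06 for AAV empty vector against control, from -0.10 to 0.04 between the diabetic groups and from -0.14 to 0.06 for AAV dnMCUb against control. Mfn2, a gene of mitochondrial fusion, was at -0.04 (SE 0.10) in AAV empty vector against control, Plod1, a collagen lysyl hydroxylase gene, at 0.05 (SE 0.05) and Clcn6, a chloride-proton exchanger gene, at 0.01 (SE 0.03). The antisense gene Gm13054 shares 989 bases with Nppa on the other strand and was at an rlog between 0.38 and 0.40 in all 6 libraries. The strand setting of the counting is not given in the sources used here, so reads of Gm13054 and Nppa may not have been separated.

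**Figure D3:**
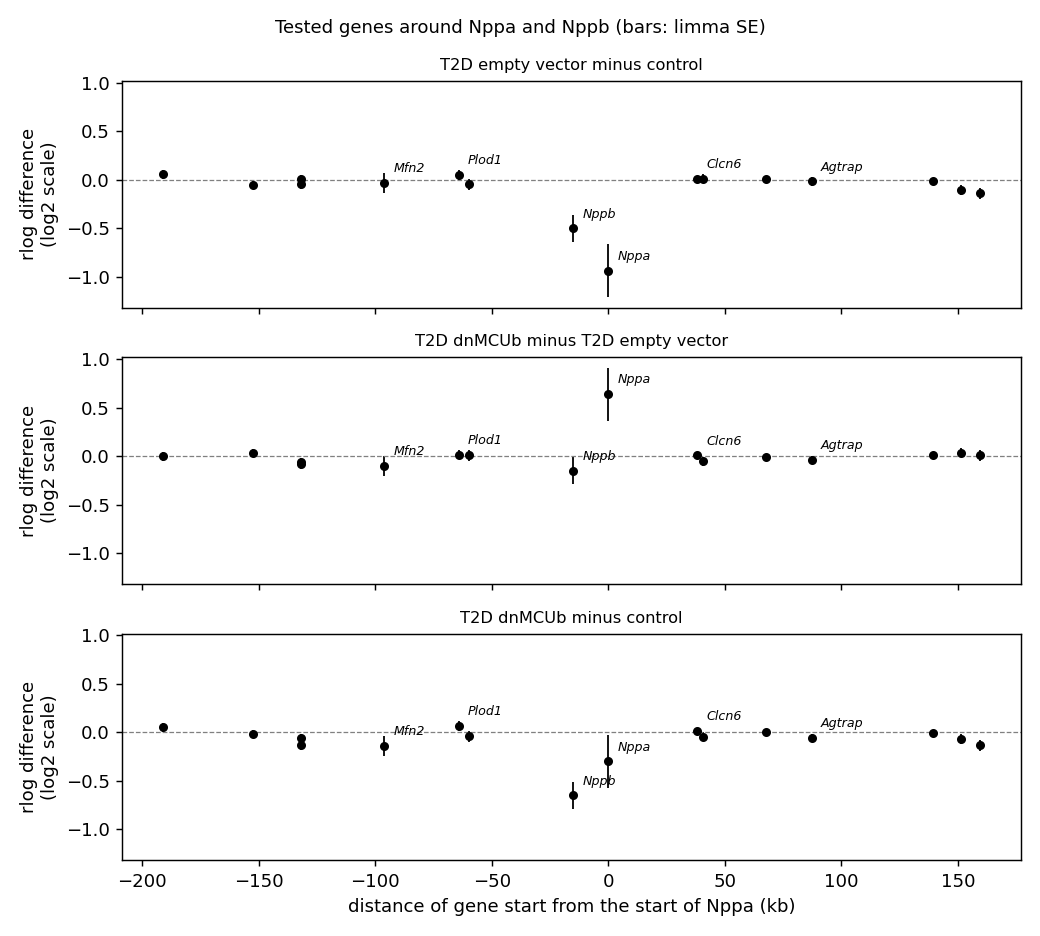
Differences in rlog (log2 scale, bars are limma standard errors) of tested genes within 250 kb of Nppa, against the distance of their start from the start of Nppa in kb, for the 3 comparisons. Nppa (-0.94) and Nppb (-0.50) lie below the other genes in the top panel, where those run from -0.14 to 0.06.

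The receptor genes differed little between groups. All 3 were higher without overlap in AAV empty vector than in control, as were 19.9% of all genes tested. Npr1 (ENSMUSG00000027931.12; minus strand of chromosome 3 from 90450591 to 90465866, GRCm38; 22 exons) was at 8.90 and 8.84 in control, 8.93 and 8.90 in AAV empty vector, and 9.12 and 8.92 in AAV dnMCUb. The control and AAV empty vector libraries were close together, and library 1 labelled dnMCUb was above the other 5 libraries. The difference from control was 0.05 (SE 0.06) in AAV empty vector and 0.15 (SE 0.06) in AAV dnMCUb, and neither passed (limma, adjusted p = 0.913 and 0.436). Without library 2 labelled dnMCUb the latter was 0.25 (SE 0.05) and passed (limma, adjusted p = 0.0333) in a fit that called 743 of all 13094 genes, or 5.67%, and with library 1 left out instead it was 0.054 (SE 0.05, limma adjusted p = 0.804). Between the diabetic groups Npr1 was at 0.10 (SE 0.06, limma adjusted p = 0.888), and at 0.0073 without library 1 labelled dnMCUb, 0.20 without library 2 and 0.04 with the atrial covariate. The value for AAV empty vector against control was 0.02 without control library 2 and 0.07 without control library 1 or with the atrial covariate.

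Npr3 (ENSMUSG00000022206.7; minus strand of chromosome 15 from 11839896 to 11905639, GRCm38; 8 exons) was at 9.91 and 9.99 in control, 10.05 and 10.11 in AAV empty vector, and 10.17 and 9.97 in AAV dnMCUb. AAV empty vector lay above control, and AAV dnMCUb spanned both. The differences from control were 0.13 (SE 0.07) in AAV empty vector and 0.12 (SE 0.07) in AAV dnMCUb (limma, adjusted p = 0.818 and 0.534), and that between the diabetic groups was -0.01 (SE 0.07), with a 95% interval from -0.17 to 0.15. Without library 1 labelled dnMCUb the difference of that group from control was 0.023, and without library 2 it was 0.22. Between the diabetic groups Npr3 was at -0.11 and 0.09 in those fits, at 0.02 without AAV empty vector library 2, at -0.04 without its library 1 and at -0.06 with the atrial covariate.

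Npr2 (ENSMUSG00000028469.15; plus strand of chromosome 4 from 43631935 to 43651244, GRCm38; 22 exons) varied least of the 6 genes. It was at 9.46 and 9.54 in control, 9.59 and 9.58 in AAV empty vector, and 9.50 and 9.57 in AAV dnMCUb. The differences were 0.08 (SE 0.05) for AAV empty vector against control, -0.05 (SE 0.05) between the diabetic groups and 0.03 (SE 0.05) for AAV dnMCUb against control (limma, adjusted p = 0.841, 0.92 and 0.805). The value for AAV empty vector against control was 0.04 without control library 1 and 0.13 without control library 2. That between the diabetic groups was -0.016 without AAV dnMCUb library 1, -0.09 without its library 2 and -0.014 with the atrial covariate. That for AAV dnMCUb against control changed sign, to -0.0096 without control library 1 and -0.0021 without AAV dnMCUb library 2, and was 0.075 without control library 2, 0.07 without AAV dnMCUb library 1 and 0.05 with the atrial covariate. The ligand that Npr2 binds was hardly expressed: Nppc, the gene of C-type natriuretic peptide, was at an rlog between 0.82 and 0.85 and was not tested. Ostn, whose product osteocrin binds the clearance receptor, was between 1.52 and 1.55.

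The balance of signalling to clearance receptor, Npr1 minus Npr3 in rlog, was -1.02 and -1.14 in control, -1.12 and -1.21 in AAV empty vector, and -1.05 and -1.05 in AAV dnMCUb, so AAV dnMCUb lay inside the range of the controls, which overlapped AAV empty vector. Npr1 and Npr3 were both highest in library 1 labelled dnMCUb, and that library also had the highest mean rlog of markers of endocardial cells (7.56, against 7.26 to 7.39 in the others), which are known to express Npr3. Fibroblast markers (11.03, against 10.47 to 10.79) and smooth muscle and pericyte markers (11.13, against 10.70 to 10.93) were highest there as well, and ventricular myocyte markers lowest (12.94, against 13.01 to 13.18). The part of these cell types in the receptor levels was not tested.

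Corin (ENSMUSG00000005220.10; minus strand of chromosome 5 from 72300026 to 72504208, GRCm38; 22 exons), the protease gene, was at 12.42 and 12.23 in control, 12.43 and 12.39 in AAV empty vector, and 12.28 and 12.65 in AAV dnMCUb. The groups overlapped in every comparison. The differences were 0.08 (SE 0.12) for AAV empty vector against control, 0.06 (SE 0.12) between the diabetic groups and 0.14 (SE 0.12) for AAV dnMCUb against control (limma, adjusted p = 0.916, 0.962 and 0.66). AAV dnMCUb library 2 was above the other 5 libraries and library 1 was second lowest, after control library 2. Without library 2 the differences of that group turned negative, at -0.13 from AAV empty vector and -0.047 from control. Without library 1 they were 0.24 and 0.33.

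**Figure D4:**
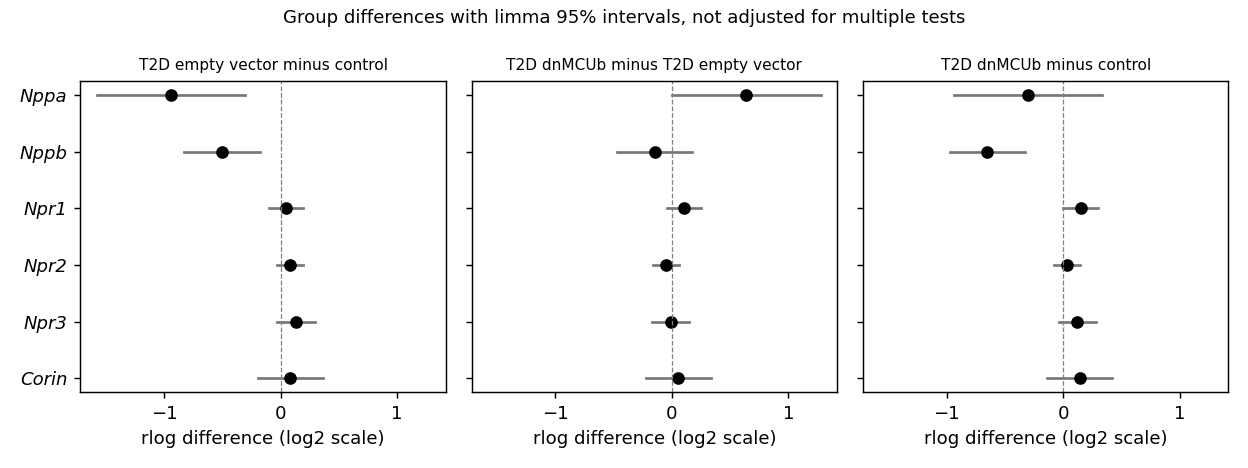
Difference in rlog (log2 scale) of each of the 6 genes in each comparison, with limma 95% intervals that are not adjusted for multiple tests. Intervals of Nppa and Nppb lie below 0 for AAV empty vector against control, and those of the receptors and Corin are narrower than that of Nppa and lie near 0.

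Counted over all 6 genes, limma called 0 in each comparison at an adjusted p under 0.05. The share of all genes tested that was called was 0.0% for AAV empty vector against control, 0.0% between the diabetic groups and 0.0687% (9 genes; 0.0611% higher, 0.00764% lower) for AAV dnMCUb against control. At an unadjusted p under 0.05, limma had 2 of the 6 (Nppa and Nppb, lower) for AAV empty vector against control, 1 (Nppa, higher) between the diabetic groups and 2 (Nppb, lower, and Npr1, higher) for AAV dnMCUb against control. All genes tested had 6.13% there in the first comparison (3.26% higher, 2.87% lower), 5.64% in the next (3.12% higher, 2.53% lower) and 11.4% in the last (5.89% higher, 5.54% lower). Groups did not overlap for 5 of the 6 genes in AAV empty vector against control (3 higher, 2 lower), for 2 between the diabetic groups (1 each way) and for 2 in AAV dnMCUb against control (1 each way), where all genes tested gave 42.4% (19.9% higher, 22.5% lower), 32.2% (15.6% higher, 16.5% lower) and 42.9% (20.2% higher, 22.7% lower). The median difference of the 6 genes was 0.07, 0.02 and 0.08 in that order, against -0.0025, -0.0005 and -0.0023 over all genes tested.

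Genes that act before and after the receptors were examined from lists, and limma called 0 members of any of the 5 lists of related genes in any comparison at an adjusted p under 0.05. For comparison, of all 13094 genes tested 6313 were higher and 6781 lower in AAV empty vector than in control, 6488 higher and 6606 lower between the diabetic groups, and 6354 higher and 6740 lower in AAV dnMCUb than in control. Of 10 tested genes for processing and breakdown of the peptides, 6 were higher and 4 lower in AAV empty vector than in control (median 0.01), with 1 at an unadjusted p under 0.05 (Furin). Furin, which encodes a protease that cuts the BNP precursor, was at 9.76 and 9.80 in control, 9.90 and 10.01 in AAV empty vector, and 9.91 and 9.93 in AAV dnMCUb. All 4 diabetic libraries were above both control libraries, by differences of 0.17 (SE 0.05) and 0.14 (SE 0.05), which did not pass (limma, adjusted p = 0.706 and 0.372). Of all genes tested, 19.9% and 20.2% were higher without overlap in these comparisons. Mme, the gene of neprilysin, which degrades natriuretic peptides, was at 0.07 (SE 0.04) and 0.10 (SE 0.04) against control. Pcsk6, whose protease activates corin, was at -0.02 (SE 0.05) and 0.08 (SE 0.05), and Galnt1, a glycosyltransferase gene, at -0.06 (SE 0.05) and -0.10 (SE 0.05).

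In the cGMP pathway, 11 of 19 tested genes were higher and 8 lower in AAV empty vector than in control (median 0.02), and 14 were higher and 5 lower in AAV dnMCUb than in AAV empty vector (median 0.05). At an unadjusted p under 0.05, 1 was lower in the former comparison and 1 was higher and 1 lower in the latter. Pde1c, a phosphodiesterase gene that acts on cGMP and cAMP, was at 9.49 and 9.39 in control, 9.02 and 9.09 in AAV empty vector, and 9.01 and 9.30 in AAV dnMCUb. The 4 diabetic libraries lay below control, with differences of -0.39 (SE 0.09) in AAV empty vector and -0.29 (SE 0.09) in AAV dnMCUb, which did not pass (limma, adjusted p = 0.581 and 0.299). Of all genes tested, 22.5% and 22.7% were lower without overlap in these comparisons. Rgs2, a regulator of G protein signalling that cGMP-dependent kinase activates, was at 0.30 (SE 0.11) between the diabetic groups (limma, adjusted p = 0.869). Prkg1, the gene of that kinase, was at 0.06 (SE 0.06) in AAV empty vector against control. The cGMP phosphodiesterase genes Pde2a, Pde5a and Pde9a were at -0.06 (SE 0.04), 0.05 (SE 0.10) and 0.01 (SE 0.03) in that comparison, and the genes of the nitric oxide-responsive cyclase, Gucy1a1 and Gucy1b1, at -0.03 (SE 0.10) and -0.05 (SE 0.06).

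Among transcription factors known to act on the ligand promoters or in the same myocytes, 9 of 23 tested were higher and 14 lower in AAV empty vector than in control (median -0.02), and the same numbers held for AAV dnMCUb against control (median -0.02). At an unadjusted p under 0.05, limma had 1 higher and 1 lower in the former comparison, and 1 higher and 6 lower in the latter. Between the diabetic groups 6 were higher and 17 lower in AAV dnMCUb (median -0.02), with 0 higher and 2 lower at an unadjusted p under 0.05. Gata4, a factor of the GATA motif, was at 10.81 and 10.79 in control, 10.69 and 10.75 in AAV empty vector, and 10.54 and 10.73 in AAV dnMCUb. Its differences from control were -0.08 (SE 0.07) and -0.16 (SE 0.07), and did not pass (limma, adjusted p = 0.868 and 0.414). Nkx2-5, a factor of the NK2 motif, was at -0.09 (SE 0.05) and -0.10 (SE 0.05), and Tbx5, a T-box factor, at -0.07 (SE 0.05) and -0.05 (SE 0.05) in the same comparisons. Tead1, a factor of the M-CAT motif, was at -0.06 (SE 0.05) in AAV empty vector and -0.20 (SE 0.05) in AAV dnMCUb against control (limma, adjusted p = 0.866 and 0.209). The homeobox genes Irx5 and Irx4 were at -0.20 (SE 0.04) and -0.18 (SE 0.06) in AAV dnMCUb against control, and Hand2 at 0.23 (SE 0.07) (limma, adjusted p = 0.129, 0.326 and 0.299). Directions were the same in AAV empty vector against control, at -0.13 (SE 0.04), -0.105 (SE 0.06) and 0.20 (SE 0.07) in that order. Between the diabetic groups the values were -0.065 (SE 0.04), -0.08 (SE 0.06) and 0.02 (SE 0.07), and none passed in either comparison.

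Other genes of cardiac wall stress and the fetal programme were counted in each comparison. Of 19 tested, 10 were higher and 9 lower in AAV empty vector than in control (median 0.02). In AAV dnMCUb, 4 were higher and 15 lower than in AAV empty vector (median -0.05), and 7 were higher and 12 lower than in control (median -0.14), the direction of Nppb. At an unadjusted p under 0.05, limma had 0 in the first comparison, 0 between the diabetic groups, and 3 higher and 1 lower in AAV dnMCUb against control. Ankrd1, a stretch-responsive gene, was at 14.19 and 14.17 in control, 14.10 and 14.38 in AAV empty vector, and 14.12 and 13.78 in AAV dnMCUb. Acta1, skeletal actin, was at 11.18 and 11.49, 11.06 and 11.42, and 11.37 and 10.35 in the same order. Differences in AAV empty vector against control were 0.06 (SE 0.13) for Ankrd1, -0.09 (SE 0.29) for Acta1, -0.20 (SE 0.21) for the slow myosin gene Myh7 and -0.13 (SE 0.18) for the fast myosin gene Myh6, all within their errors. The largest differences of AAV dnMCUb from control on this list were those of Acta1 (-0.48, SE 0.29) and Ctgf, a matrix-associated growth factor gene (0.40, SE 0.17), and neither passed (limma, adjusted p = 0.549 and 0.423).

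**Figure D5:**
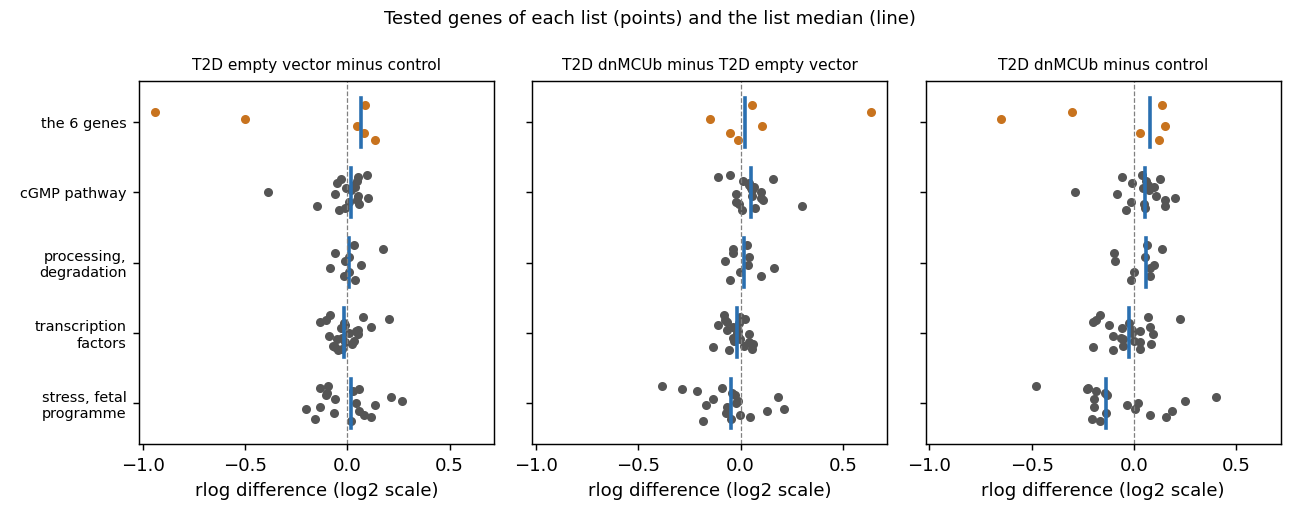
Differences in rlog (log2 scale) of the 6 genes and of the tested genes of 4 lists of related genes in each comparison, with 1 point per gene and a line at the median of each set. Nppa (-0.94) and Nppb (-0.50) lie below every gene of the 4 lists for AAV empty vector against control.

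The genes whose pattern over the 6 libraries was most like each of the 6 were ranked by Pearson's r, as a description, among genes with at least 0.5 of its SD. For Nppb, 255 genes qualified and the closest were Apln, which encodes the peptide apelin (r = 0.93), Abat, GABA transaminase (0.90), Oxct1, an enzyme of ketone body breakdown (0.85), Epha4, an ephrin receptor gene (0.85), and Tuba8, a tubulin gene (0.83). Apln was at 8.42 and 8.51 in control, 8.16 and 8.22 in AAV empty vector, and 8.15 and 8.02 in AAV dnMCUb. As with Nppb, control library 2 was highest, library 2 labelled dnMCUb lowest and all 4 diabetic libraries below control. For Nppa 84 genes qualified and none was close: Abat (r = 0.65), Nppb (0.63), Mybphl (0.49), Lrrc4b (0.49) and Sln (0.49) came first. For Corin the closest of 2662 were Selenbp1, Eci2, Acadvl, Pnpla2 and Ech1, with r from 0.97 to 0.99. Acadvl, very long chain acyl-CoA dehydrogenase, was at 14.24 and 14.12 in control, 14.29 and 14.24 in AAV empty vector, and 14.11 and 14.39 in AAV dnMCUb, highest like Corin in library 2 labelled dnMCUb. For the receptors, whose ranges were 0.27 (Npr1), 0.13 (Npr2) and 0.26 (Npr3) over the 6 libraries, 6586, 11629 and 6392 genes qualified. Npr1 was closest to Gm13456, Lrrc17, Cask, Mindy3 and Ppm1m (r from 0.98 to 0.99), Npr2 to Susd6, Gm16439, Dgkd, Vmn2r57 and Taf8 (0.97 to 0.99), and Npr3 to Tmem43, Syt11, Maml2 and Gusb (0.990 to 0.996). With 6 libraries of 3 groups, and so many genes to choose from, these values of r only describe the libraries.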

How the data were processed

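Per the labels' protocols, Trizol extracts of hearts went into a strand-specific Illumina total RNA library kit that removes ribosomal RNA. Per the submitters' processing notes, bcl2fastq 2.20.0.422, STAR 2.5.2a and DESeq2 were used and the builds named are GRCm38, mm10 and hg38, without roles. The counting program is not given in the sources used here. The authors deposited 1 table of 54352 genes with rlog values on the log2 scale for 6 libraries and, for each of 3 comparisons, a log2 fold with its raw and adjusted p-value. Depth is unknown, since the table holds no counts.

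Differences were fitted in limma 3.58.1 (R 4.3.3), all 6 libraries sharing 1 model with a term per group and a mean-variance trend, restricted to 13094 genes (mean rlog 5 or more), with Benjamini-Hochberg adjustment over all of them at 0.05. The fit has 3 residual and 4.6 prior degrees of freedom. Errors beside differences are limma's standard errors. Exact permutation (two-sided) was not used, because 0.333 is its smallest p at this group size. The script was tested on simulated data. The 6 genes and the lists (5 of related genes, 10 of cell type markers) were chosen with earlier results of these data known. Named were all 6 genes, up to 4 list members with the smallest p in any comparison, a fixed set of pathway genes, and the 5 genes most like each of the 6. A few genes that this rule names are not reported here. Alternatives were other filters, scalings and covariates, fits of 2 groups, a replicate block, and each library left out in turn, where a group's lone library is assumed to vary like the other groups. Transcript coordinates in the table matched GENCODE M21 for all 6 genes.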

Additional observations from a re-analysis of the deposited data

How the results depend on the processing

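Of 252 values of the 6 genes under the alternatives (18 differences, 14 settings each), 243 kept their direction and their side of the threshold, 8 changed sign and 1 came to pass, and each of those 9 left out a library. Many of the 252 could not change sign. Fits of 2 groups, other filters, no trend and the replicate block return the same difference by construction, and only its error moves. Leaving out a library of the group not compared also returns the same difference. Over the leave-one-out fits the difference of AAV dnMCUb from control ran from -0.73 to 0.12 for Nppa, from 0.054 to 0.25 for Npr1, from -0.0096 to 0.075 for Npr2 and from -0.047 to 0.33 for Corin. That between the diabetic groups ran from -0.11 to 0.088 for Npr3 and from -0.13 to 0.24 for Corin, and that of AAV empty vector from control from -0.016 to 0.18 for Corin. The count of all genes called by limma moved far more. For AAV empty vector against control, 0 with all libraries, it was 30 with only those 2 groups in the fit, 8 with the atrial covariate and 0 to 30 with a library left out (30 without either AAV dnMCUb library, 1 without control library 2). Between the diabetic groups, also 0, it was 0 to 14 with a library left out (14 without AAV dnMCUb library 1). For AAV dnMCUb against control, 9, it was 0 with only those groups, with no filter, with no trend, with libraries centred on their median, with quantile normalization and with the replicate block, 29 at a mean rlog of at least 7, 86 with the atrial covariate and 0 to 743 with a library left out (743 without AAV dnMCUb library 2, 89 without its library 1, 1 without control library 2 and 0 without each of the other libraries). Fits without an AAV dnMCUb library estimate the within-group spread from control and AAV empty vector alone, like the fit of those 2 groups. Apart from this and the loss of a library in the leave-one-out fits, the cause of these moves was not tested. Library numbers did not pair the groups: the correlation over genes of the difference between libraries 1 and 2 was -0.088 and -0.013 between control and the diabetic groups and -0.511 between those, where crossing the numbers, chosen after seeing the data, left 0 genes called. The replicate block changed no call among the 6 genes.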
